A study of Homo sapiens with 12 samples.

Results

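The genes studied here encode the proteins that bring glucose into the cell and commit it to glycolysis. They are the 10 genes SLC2A1, SLC2A3, HK1, HK2, PFKL, PFKM, PFKP, PFKFB2, PFKFB3 and PFKFB4, chosen by symbol and found in both deposited tables, among 28008 genes listed for the silencing experiment and 25435 for the overexpression experiment. Glucose enters by facilitated diffusion through transporters of the SLC2 (GLUT) family. Hexokinases then phosphorylate it, which traps it in the cell, and phosphofructokinase carries out the committed step. The bifunctional PFKFB enzymes make and degrade fructose 2,6-bisphosphate, a potent allosteric activator of phosphofructokinase, and the isoforms of each family differ in tissue distribution and regulation. Normal prostate epithelium is known for secreting citrate, a product of glucose, and isoforms such as HK2 have been studied in advanced prostate cancer.

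RNA-Seq libraries of cultured prostate cancer cells were analysed in 2 experiments, with 3 libraries per group. MUC1-C is the transmembrane subunit of the mucin MUC1. The silencing experiment used LNCaP-ER cells, selected for resistance to the antiandrogen enzalutamide and carrying an shRNA against MUC1 under tetracycline control. These received vehicle or doxycycline (DOX) at 500 ng/mL for 7 days. The overexpression experiment set LNCaP cells beside a derivative that overexpresses MUC1-C (LNCaP/MUC1-C OE). The labels call its treatment tetMUC1-C, the study's methods describe MUC1-C in a CMV vector, and no DOX treatment is given for these libraries. The labels of the LNCaP controls read wild-type and the column names read vector, so whether they carried an empty vector cannot be told, and a control shRNA treated with DOX was not analysed here. Each experiment compares cultures of a single line, and the p-values measure the spread between these cultures. In the silencing experiment the groups differ in DOX exposure as well as in the shRNA, and these cannot be told apart. In such bulk libraries, a change in the share of cells that express a gene and a change per cell cannot be told apart either.

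Total counts ranged from 28045894 to 45807989 in the silencing experiment and from 13806856 to 19208944 in the overexpression experiment. MUC1 was counted 30, 25 and 31 times in LNCaP replicates 1, 2 and 3 and between 9168 and 12622 times in the MUC1-C OE libraries. In LNCaP-ER cells the MUC1 counts were 26, 10 and 13 with vehicle, but 3, 42 and 8 in those labelled DOX. The library labelled DOX replicate 2 thus held more MUC1 counts than any vehicle library. MUC1 did not differ between the groups by edgeR (adjusted p = 0.935), and the groups are named here by their labels. The DOX libraries also had fewer genes without a count, at 30.7%, 11.2% and 27.95% of the listed genes in replicates 1, 2 and 3, against 36.4% to 38.1% with vehicle. All DOX libraries lay below all vehicle libraries, replicate 2 by far the most. Luminal prostate markers were present in LNCaP-ER cells, with a summed level over 9 markers of 4140 to 4217 CPM (read counts scaled to library size) with vehicle and 4734 to 5148 CPM with DOX, where 5 of the 9 were called higher and 2 lower. The libraries labelled LNCaP held a sum of 398 to 414 CPM, and those labelled MUC1-C OE 93.9 to 105 CPM, where 7 of the 9 were called lower. KLK3, which encodes prostate-specific antigen, was counted 514, 432 and 434 times in LNCaP and not once in the MUC1-C OE libraries, and the mesenchymal gene VIM averaged 453 CPM in LNCaP and 1277 CPM in MUC1-C OE cells. The sum over 5 mesenchymal markers was 649 to 709 CPM in LNCaP and 1386 to 1480 CPM in MUC1-C OE libraries, against 214 to 233 CPM with vehicle and 106 to 131 CPM with DOX in LNCaP-ER cells. Among these mesenchymal markers in LNCaP-ER cells, FN1 fell from 211 to 76.6 CPM while VIM rose from 5.31 to 32.9 CPM (adjusted p = 2.17e-04 and 4.45e-04 by edgeR). Sums of basal, leukocyte and neuroendocrine markers stayed at or below 26.97 CPM in every library. Levels in the overexpression experiment are therefore given for libraries with few luminal transcripts, and the part of this in the results below was not tested. Names below follow the labels, and the identity of the cells labelled LNCaP was not tested. Differences between the 2 experiments can therefore not be read as LNCaP against LNCaP-ER cells.

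Of the 10 genes, 4 were higher in LNCaP-ER cells with DOX and none was lower, by edgeR's quasi-likelihood test with a Benjamini-Hochberg adjusted p under 0.05. These were SLC2A1, SLC2A3, HK1 and PFKFB2, so that each family but phosphofructokinase itself had a member that rose. Over all 14683 genes tested, 27.3% passed in either direction, 12.8% were higher and 14.5% were lower. Groups did not overlap for 7 of the 10 genes, all higher with DOX, against 21.2% of all genes higher and 23.0% lower without overlap. The median log2 fold change was 0.36 for the 10 genes and -0.02 for all genes tested. With the library of DOX replicate 2 left out, the test called 5 of the 10, PFKL being added, and 5243 genes were called in all. In the overexpression experiment, 8 of the 10 genes were higher in MUC1-C OE cells than in LNCaP cells and none was lower, while PFKL and PFKFB4 did not pass. There the background was much larger, with 67.3% of 13836 genes tested called, 33.2% called higher and 34.1% called lower. The 8 genes did not overlap between groups, against 70.3% of all genes in either direction, 34.4% higher and 35.9% lower. The median log2 fold change was 0.53 for the 10 genes and -0.01 for all genes. When libraries were scaled by size alone, 6 of the 10 were higher and PFKL was lower, as the median of all genes then moved to -0.16. The 4 genes that rose with DOX were thus also called higher with MUC1-C overexpression. The 2 designs manipulate MUC1 in opposite directions, but MUC1 did not differ with DOX in these libraries (adjusted p = 0.935 by edgeR). The share of all genes higher with DOX that were also called higher with overexpression was not computed. The difference between the 2 experiments was not tested, since cells, depth and tables differ.

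**Figure D1:**
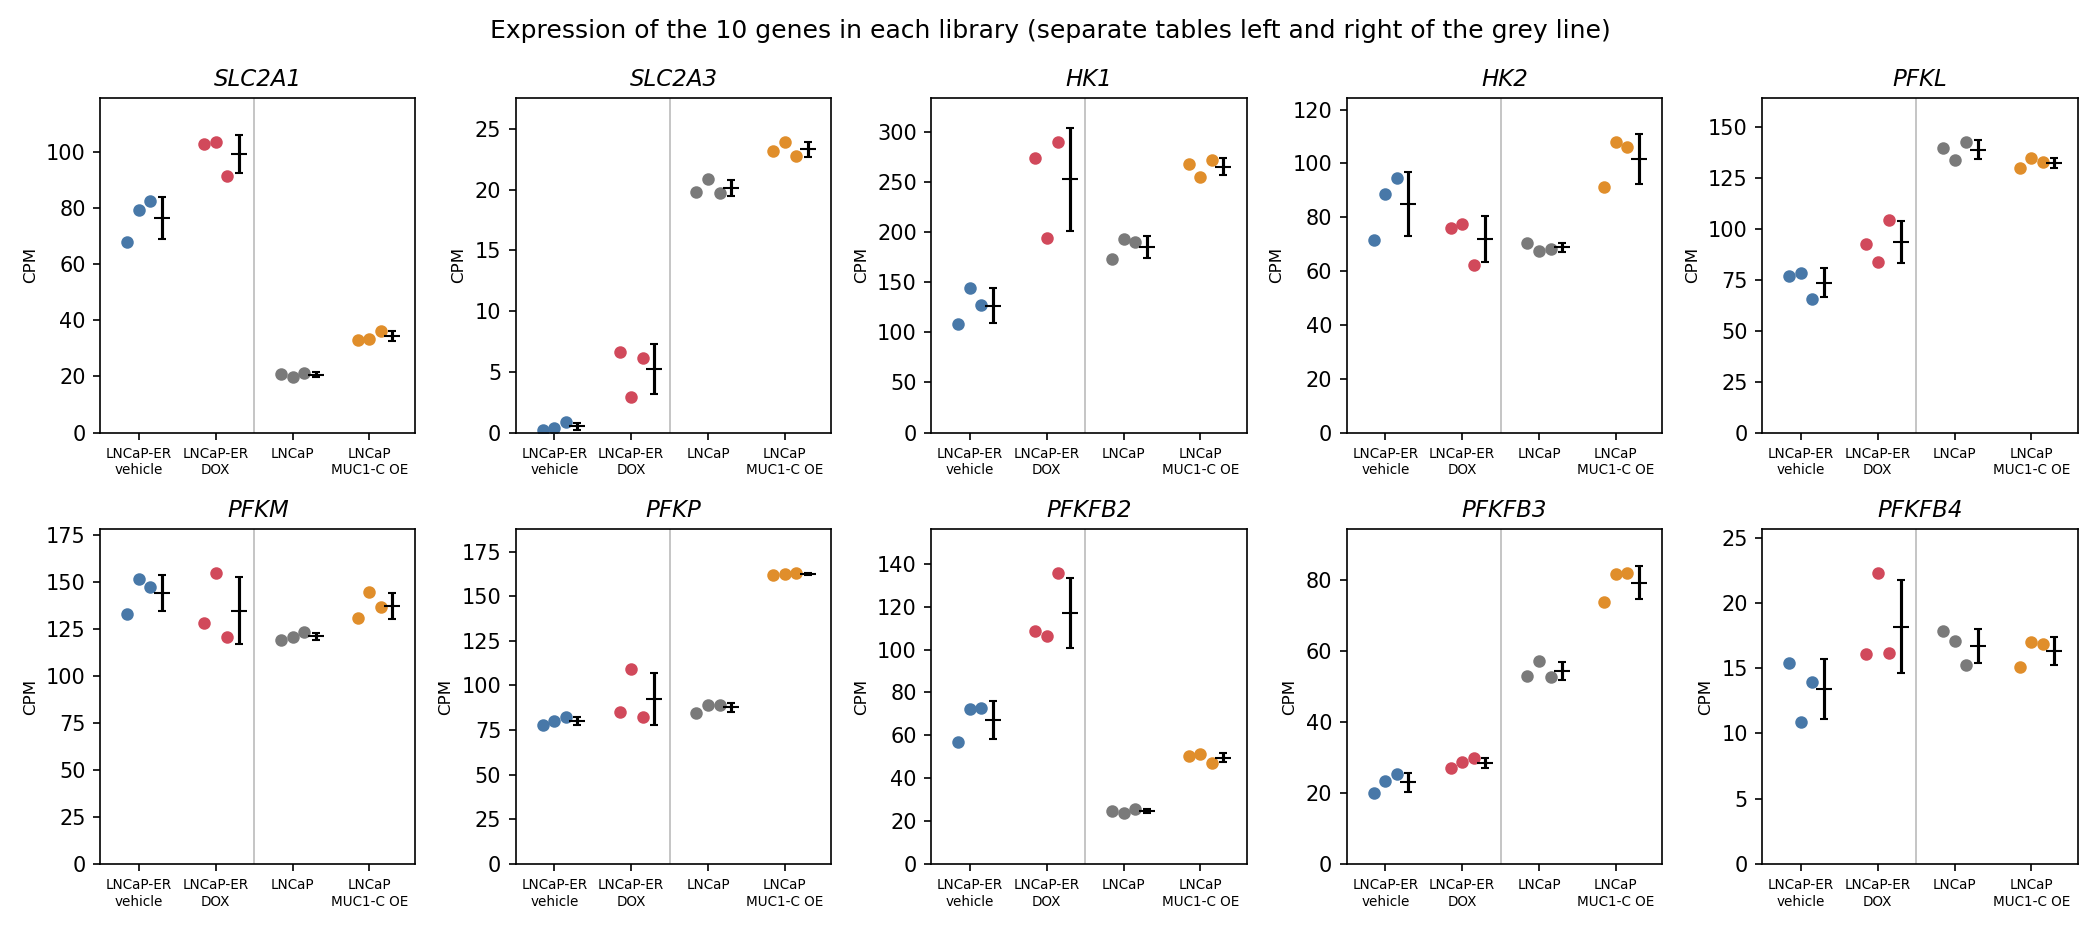
CPM normalized by TMM (vertical axis, from 0) of each gene in each library, with replicates 1 to 3 as points and the mean and SD as a black bar (n = 3); the grey line separates the 2 experiments, which were normalized separately. SLC2A3 and HK1 separate clearly between vehicle and DOX, and PFKP and PFKFB2 between LNCaP and MUC1-C OE.

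**Figure D2:**
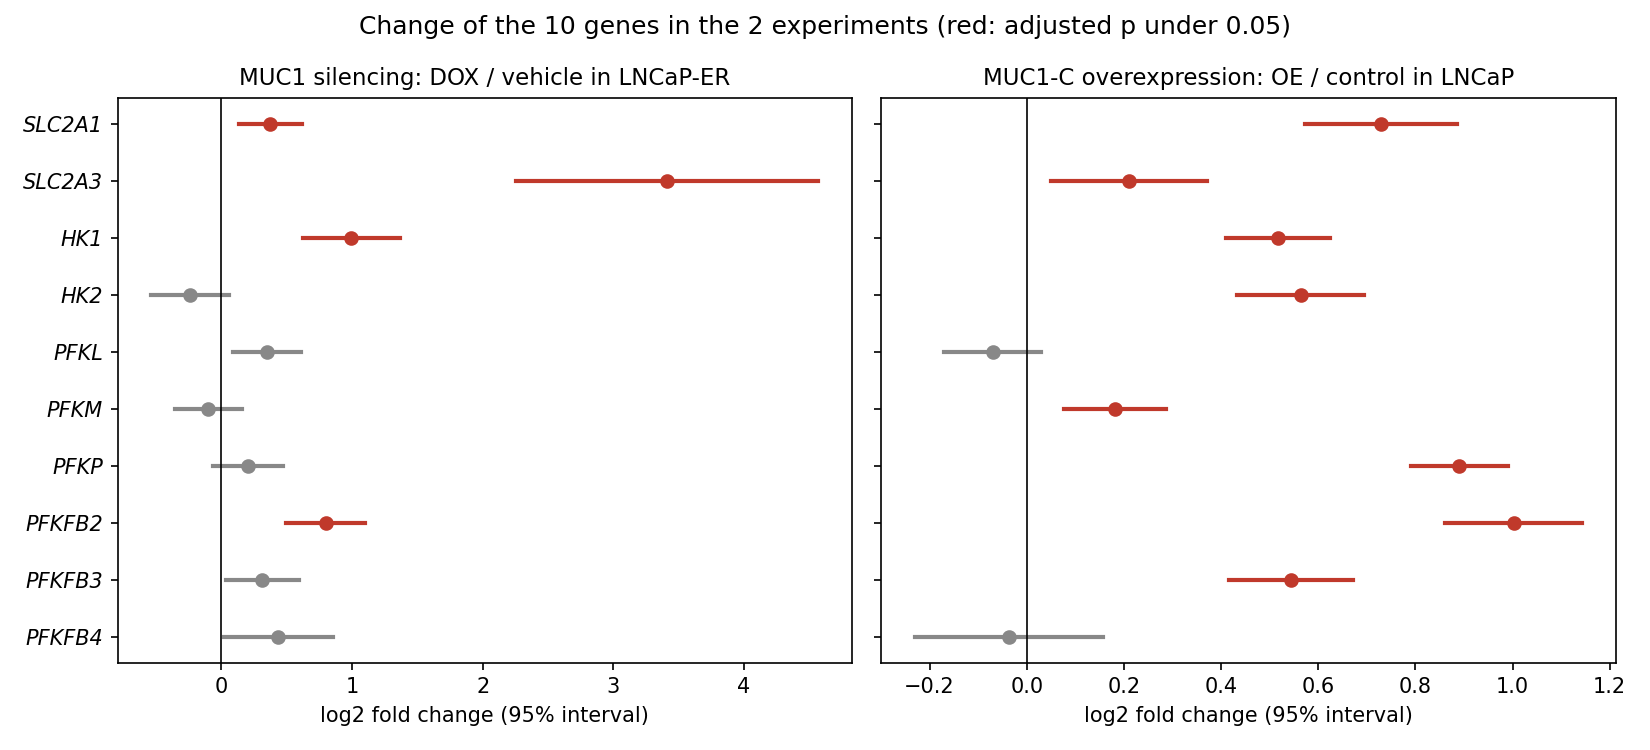
Log2 fold change (horizontal axis) with its 95% interval for each gene in the silencing experiment (left) and the overexpression experiment (right), in red where the adjusted p of edgeR's quasi-likelihood test was under 0.05. The interval of SLC2A3 runs from 2.26 to 4.57 with DOX, and no gene called in either experiment lies below 0.

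SLC2A1 encodes GLUT1, the transporter of basal glucose uptake in most cells, and lies at chr1:42925353-42958868 (RefSeq, GRCh38.p14). SLC2A3 encodes GLUT3, a high-affinity transporter best known from neurons, at chr12:7919230-7936187. In LNCaP-ER cells SLC2A3 was low with vehicle, with 9, 12 and 24 counts in replicates 1, 2 and 3. With DOX it was counted 220, 86 and 285 times. All DOX libraries lay above all vehicle libraries, and the library labelled DOX replicate 2 was the lowest of the treated group. The level rose from 0.500 ± 0.317 to 5.24 ± 2.04 CPM (SD, n = 3 each), a log2 fold change of 3.41 with an SE of 0.51 (edgeR's quasi-likelihood test, adjusted p = 0.00247), and the call held in each of the 11 alternative fits that could be made, with log2 fold changes of 3.05 to 4.02. SLC2A14, a near-identical paralog that can share reads with SLC2A3, had no counts with vehicle and 12, 19 and 3 counts with DOX, so the division between these genes is uncertain. The share of genes without a count was smaller in every DOX library, alongside this increase at low counts. Among the DOX libraries, however, replicate 2 had the smallest such share, 11.2%, and the lowest SLC2A3. The part of this share in the increase was not tested. SLC2A1 rose from 68.1, 79.2 and 82.5 CPM to 103, 104 and 91.6 CPM, a 1.30-fold increase. Its adjusted p was 0.0280, and the call was lost on leaving out vehicle replicate 1, 2 or 3 or DOX replicate 1 (adjusted p = 0.0663, 0.0835, 0.0627 and 0.0881, each by edgeR).

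The 2 transporters stood at much nearer levels in the overexpression experiment. SLC2A1 was at 20.9, 19.8 and 21.4 CPM in LNCaP and at 33.0, 33.5 and 36.3 CPM in MUC1-C OE cells, with no overlap, a log2 fold change of 0.73 ± 0.07 (SE) and an adjusted p of 1.25e-07 by edgeR. SLC2A3 was at 19.8, 20.9 and 19.7 CPM against 23.2, 23.9 and 22.8 CPM. This 1.16-fold increase passed with an adjusted p of 0.0216 by edgeR but not with DESeq2 (adjusted p = 0.0625), with scaling by library size alone (0.523), or without LNCaP replicate 1, LNCaP replicate 3 or MUC1-C OE replicate 2 (0.0661, 0.0795 and 0.0501). Isoform shares were taken per gene length, from the deposited TPM in the silencing experiment and otherwise from counts divided by the lengths that these TPM imply. SLC2A3 made up 0.583% ± 0.326 of the summed SLC2A1 and SLC2A3 level in vehicle-treated LNCaP-ER cells and 4.68% ± 1.87 with DOX. In LNCaP cells its share was 47.4% ± 1.82, and in MUC1-C OE cells it was 38.7% ± 1.69 (SD, n = 3). The share of SLC2A3 was thus higher with DOX and lower with MUC1-C overexpression. The log2 ratio of SLC2A3 to SLC2A1 changed by 3.11 and by -0.52, with no overlap of groups in either experiment. An exact two-sided permutation test of 3 against 3 libraries cannot give a p below 0.1, which both changes reached (adjusted p = 0.2 and 0.114 over the 8 ratios compared in each experiment). How often the ratios of other gene pairs do not overlap between groups was not computed in either experiment.

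Hexokinases phosphorylate glucose to glucose 6-phosphate. HK1 (chr10:69270000-69401882) is the constitutive isoform of most tissues, and HK2 (chr2:74834127-74893359) is an insulin- and hypoxia-responsive isoform that is raised in many tumours. HK1 rose with DOX in LNCaP-ER cells and HK2 did not pass. HK1 was at 109, 144 and 128 CPM with vehicle and at 274, 194 and 290 CPM with DOX, so that the lowest treated library, the library labelled DOX replicate 2, still exceeded the highest vehicle library. The mean rose from 127 ± 17.8 to 253 ± 51.4 CPM, a log2 fold change of 1.00 ± 0.16 (SE) with an adjusted p of 0.00365 by edgeR, and all 13 alternative fits called it. HK2 was at 71.7, 88.5 and 94.6 CPM with vehicle and 76.0, 77.6 and 62.2 CPM with DOX. These groups overlapped, and the 95% interval of its log2 fold change ran from -0.54 to 0.06 (adjusted p = 0.205 by edgeR). The share of HK2 in the pair was lower in the DOX libraries. HK2 made up 29.1%, 27.7% and 31.6% of the per-length hexokinase level with vehicle and 14.7%, 19.9% and 11.8% with DOX, with no overlap. The count ratio of HK2 to HK1 was 2.33-fold lower with DOX (log2 difference -1.22, exact permutation p = 0.1, adjusted p = 0.2).

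In the overexpression experiment both hexokinases rose. HK1 was at 173, 193 and 190 CPM in LNCaP and 269, 256 and 272 CPM in MUC1-C OE cells, and HK2 was at 70.5, 67.5 and 68.4 CPM against 91.1, 108 and 106 CPM. Neither gene overlapped between groups. The log2 fold changes were 0.52 ± 0.05 for HK1 and 0.56 ± 0.06 for HK2 (SE, adjusted p = 8.69e-08 and 3.68e-07 by edgeR). The share of HK2 in the pair was 18.8% ± 1.25 in LNCaP and 19.3% ± 1.71 in MUC1-C OE cells, which differed by less than the spread between replicates, and the log2 ratio of HK2 to HK1 changed by 0.04 with overlapping groups. HK2 therefore passed in the overexpression experiment and not in the silencing experiment, HK1 passed in both, and the difference in HK2 between experiments was not tested. The other hexokinase genes HK3 and HKDC1 were each below 1 CPM on average in every group and were not tested in either experiment.

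The RefSeq promoter table (GRCh38.p14) held windows for 8 of the 10 genes, and not for SLC2A3 and PFKFB2. The 250 bases before the annotated start of HK2 and of SLC2A1 are shown because SLC2A1 passed the test with DOX and HK2 did not, while both rose with MUC1-C overexpression. In HK2 the capitals mark ACGTG on either strand, a form of the core of the hypoxia response element. The form GCGTG was neither marked nor counted. In SLC2A1 the capitals mark GGGCGG on either strand, the GC box bound by factors of the SP family. The HK2 window also holds GGGCGG, which is left unmarked there, so this motif does not separate the 2 windows.
HK2, chr2:74833877-74834126, plus strand: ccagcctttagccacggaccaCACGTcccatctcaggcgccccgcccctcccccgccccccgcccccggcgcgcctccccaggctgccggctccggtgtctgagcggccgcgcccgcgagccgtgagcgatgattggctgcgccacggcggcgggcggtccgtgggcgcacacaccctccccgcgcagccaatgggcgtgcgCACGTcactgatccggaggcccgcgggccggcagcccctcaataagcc
SLC2A1, chr1:42958869-42959118, minus strand: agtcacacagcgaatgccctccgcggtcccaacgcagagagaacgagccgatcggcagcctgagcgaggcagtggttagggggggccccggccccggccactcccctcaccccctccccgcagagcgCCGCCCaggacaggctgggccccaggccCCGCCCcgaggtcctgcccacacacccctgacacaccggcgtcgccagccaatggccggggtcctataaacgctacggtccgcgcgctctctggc
The ACGTG form began 229 and 48 bases before the HK2 start and was found in none of the other 7 windows, against 18.7% of 27305 windows of the same length. The E-box CACGTG, which contains ACGTG and is read by MYC and by the MLX partners of the carbohydrate-response factors, was in none of the 8 windows and in 6.49% of all. GGGCGG was in 6 of the 8 windows and in 42.3% of all, and in SLC2A1 it began 123 and 95 bases before the start. These matches describe the windows and name no bound factor.

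Phosphofructokinase works as a tetramer of liver (PFKL), muscle (PFKM) and platelet (PFKP) subunits, which lie at chr21:44300053-44327373, chr12:48105353-48146404 and chr10:3067548-3136805. None of the 3 passed the test in LNCaP-ER cells. PFKL was at 77.0, 78.5 and 65.5 CPM with vehicle and 92.8, 83.9 and 104 CPM with DOX, which did not overlap, as was the case for 44.3% of all genes tested. Its log2 fold change of 0.35 missed the threshold (adjusted p = 0.0520 by edgeR), and 6 of its 13 alternative fits called it. PFKM and PFKP overlapped between groups, and the 95% intervals of their log2 fold changes ran from -0.35 to 0.16 and from -0.06 to 0.47. The library labelled DOX replicate 2 held the highest level of both, with 155 CPM for PFKM and 109 CPM for PFKP. The ratio of PFKP to PFKM was higher in all 3 DOX libraries than in the vehicle libraries (log2 difference 0.30, exact permutation p = 0.1, adjusted p = 0.2).

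Of the 3 subunits, PFKP had the largest fold change in MUC1-C OE cells. It is the subunit best known from platelets and many tumour lines. PFKP was at 84.8, 89.2 and 89.0 CPM in LNCaP and at 162, 163 and 163 CPM in MUC1-C OE cells, a log2 fold change of 0.89 ± 0.05 (SE) with the smallest adjusted p of the 10 genes, 2.71e-11 by edgeR. PFKM rose 1.13-fold from 121 ± 2.01 to 137 ± 6.94 CPM (adjusted p = 0.00396 by edgeR), a call that was lost with scaling by library size alone (adjusted p = 0.643). PFKL was at 140, 134 and 143 CPM against 130, 135 and 133 CPM, with overlapping groups and a log2 fold change of -0.07 (adjusted p = 0.200 by edgeR). Scaled by library size alone, PFKL was lower by a log2 fold change of -0.22 (adjusted p = 4.91e-04). Per length, PFKP made up 26.5% ± 0.742 of the 3 subunits in LNCaP and 39.6% ± 0.681 in MUC1-C OE cells, and PFKL 47.1% ± 0.972 and 36.2% ± 0.069. The log2 ratio of PFKP to PFKL changed by 0.96 without overlap (exact permutation p = 0.1, adjusted p = 0.114). In LNCaP-ER cells the shares with vehicle were 31.0% PFKL, 39.0% PFKM and 30.0% PFKP, and those with DOX were 35.9%, 32.9% and 31.2%, within overlapping ranges for PFKL and PFKP. The order of the subunits depended on the gene lengths used, since with exon lengths of the GENCODE annotation PFKL made up 18.6% with vehicle and 31.0% in LNCaP. PFKP was then at 36.1% in LNCaP and 49.99% in MUC1-C OE cells.

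**Figure D3:**
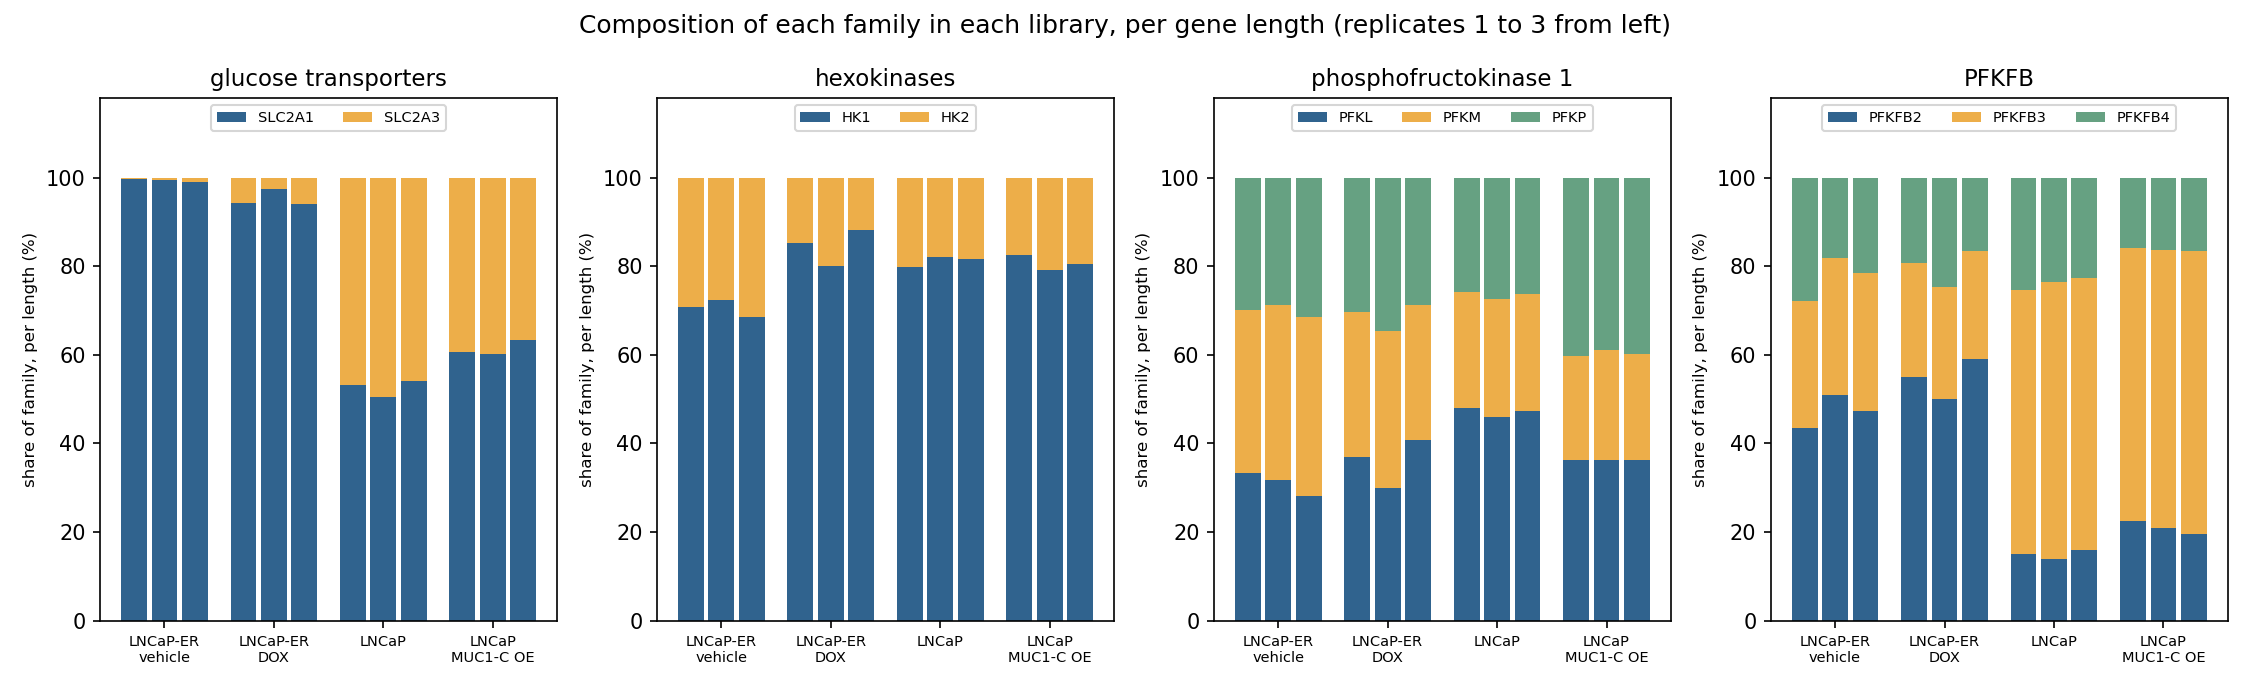
Share of each isoform in the summed per-length level of its family (stacked bars, percent) in each of the 12 libraries, in groups of replicates 1 to 3. SLC2A3 takes up 47.4% of the transporter pair in the libraries labelled LNCaP and 0.583% in vehicle-treated LNCaP-ER cells, from separate experiments that cannot be read as LNCaP against LNCaP-ER. HK2 takes a smaller share with DOX, and PFKP a larger one with MUC1-C overexpression.

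PFKFB enzymes set the level of fructose 2,6-bisphosphate, PFKFB3 having the strongest kinase bias and PFKFB4 being a hypoxia-responsive isoform first described in testis, while PFKFB2 is the heart isoform controlled by AKT and an androgen-responsive gene in prostate cells. PFKFB2 (chr1:207034416-207081027) was the isoform that rose in both experiments. It was at 57.1, 72.2 and 72.5 CPM with vehicle and at 109, 107 and 136 CPM with DOX, a log2 fold change of 0.80 ± 0.13 (SE, adjusted p = 0.00392 by edgeR) that all 13 alternative fits called. In the overexpression experiment it was at 24.9, 23.8 and 25.5 CPM in LNCaP and 50.3, 51.3 and 47.1 CPM in MUC1-C OE cells. That change, a log2 fold change of 1.00 ± 0.07 (SE, adjusted p = 5.84e-10 by edgeR), was the largest of the 10 genes in this experiment.

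PFKFB3 (chr10:6144921-6326637) went from 20.04, 23.4 and 25.5 CPM to 27.1, 28.7 and 29.9 CPM with DOX, without overlap, but its log2 fold change of 0.31 did not pass (adjusted p = 0.0866 by edgeR). With MUC1-C overexpression it was higher, at 73.9, 81.8 and 82.1 CPM against 53.1, 57.3 and 52.7 CPM, a log2 fold change of 0.54 ± 0.06 (SE, adjusted p = 4.16e-07 by edgeR). PFKFB4 (chr3:48517684-48563136) passed in neither experiment. Its CPM with DOX, 16.1, 22.3 and 16.2, lay above those with vehicle, 15.4, 10.9 and 13.9 (adjusted p = 0.107 by edgeR), and in LNCaP and MUC1-C OE cells it averaged 16.7 ± 1.31 and 16.3 ± 1.06 CPM. Measured against PFKFB2, PFKFB3 was lower in the treated cells of both experiments, the log2 ratio changing by -0.48 with DOX and by -0.46 with MUC1-C overexpression, with no overlap of groups in either (exact permutation p = 0.1 in each, adjusted p = 0.2 and 0.114). PFKFB4 relative to PFKFB2 was 2.05-fold lower in MUC1-C OE cells without overlap (exact permutation p = 0.1, adjusted p = 0.114), and its groups overlapped in LNCaP-ER cells (exact permutation p = 0.4, adjusted p = 0.533). The per-length share of PFKFB2 among the 3 isoforms was 47.2% ± 3.67 with vehicle and 54.6% ± 4.54 with DOX, with overlapping ranges, and 14.9% ± 1.00 in LNCaP and 21.0% ± 1.43 in MUC1-C OE cells, without overlap. PFKFB3 was the leading isoform in the libraries labelled LNCaP and MUC1-C OE, with 61.3% and 62.7% of the per-length level. PFKFB2 was the leading isoform in LNCaP-ER cells. PFKFB1, the liver isoform, averaged under 1 CPM in all groups.

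**Figure D4:**
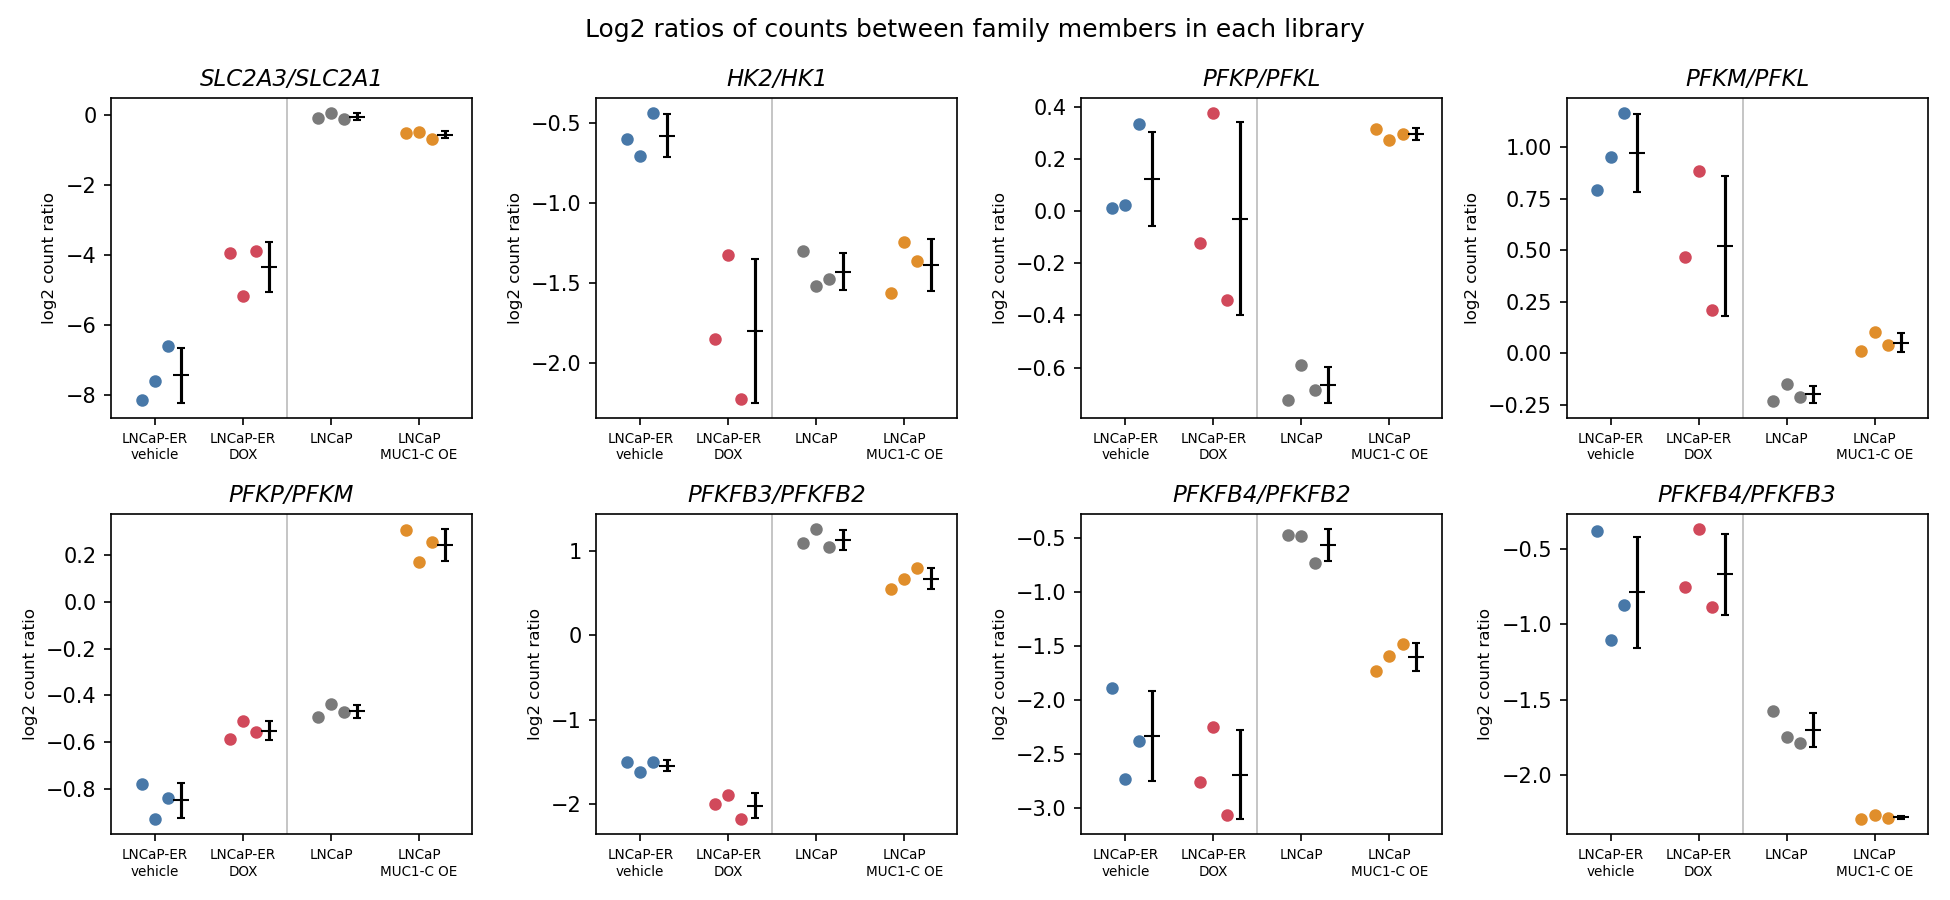
Log2 ratio of the counts of the named pairs of isoforms (vertical axis, a separate scale in each panel) in each library, with the mean and SD in black (n = 3); counts are not divided by length, so only differences between groups can be read. HK2/HK1 is lower with DOX and overlaps between LNCaP and MUC1-C OE, and PFKFB3/PFKFB2 is lower in the treated group of both experiments.

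The order of the 10 genes by per-length level differed between the 2 tables, with the gene lengths that the deposited TPM imply. The orders given here depend on those lengths. With GENCODE exon lengths, PFKL in LNCaP came after PFKM and PFKP (31.0% against 32.9% and 36.1% of the 3 subunits). By these exons PFKL is longer than HK1 (8926 against 6296 bases), while the implied lengths make it shorter. With vehicle, the authors' TPM averaged 17.8 ± 2.15 for HK1, 17.7 ± 1.72 for PFKM, 14.3 ± 3.13 for PFKL, 13.7 ± 1.59 for PFKP and 13.5 ± 0.685 for SLC2A1. Neighbours among these 5 did not differ beyond their spread. HK2 followed at 7.39 ± 0.219 TPM, then PFKFB2 at 4.51 ± 0.269, PFKFB3 at 2.89 ± 0.0725 and PFKFB4 at 2.17 ± 0.604, and SLC2A3 was last at 0.0775 ± 0.0394, with overlapping values for PFKFB3 and PFKFB4. In LNCaP cells, on a scale like TPM computed from counts and the same lengths, PFKL (104 ± 4.33) and HK1 (103 ± 5.18) led and were not separated. PFKP (58.6 ± 1.31) and PFKM (58.4 ± 1.08) came next, also not separated, and then PFKFB3 (27.0 ± 1.02), HK2 (23.7 ± 0.746), SLC2A1 (14.4 ± 0.697), SLC2A3 (12.9 ± 0.309), PFKFB4 (10.5 ± 0.838) and PFKFB2 (6.54 ± 0.276), each without overlap with its neighbour. The scales of the 2 tables cannot be set against each other, since RN7SK alone held 24.6% to 37.7% of the TPM in the silencing table and was not used in the scale of the other. RN7SK was also lower with DOX, at 1.04% to 1.77% of counts against 2.37% to 3.08% with vehicle, and the median of all genes on the TPM scale moved up by 0.45 on the log2 scale.

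Neighbouring steps were examined through lists of related genes, described here by their counts. Of 9 other glucose transporters tested in LNCaP-ER cells, SLC2A6 was higher with DOX (10.5 to 15.5 CPM, adjusted p = 0.0364 by edgeR), SLC2A4, the insulin-responsive GLUT4, was lower (15.04 to 10.1 CPM, adjusted p = 0.0342), and 7 did not pass. In the overexpression experiment all 6 tested members of this list passed, 4 higher and 2 lower, including SLC2A12 at 17.5 against 28.02 CPM, SLC2A11 at 10.8 against 3.36 CPM and SLC2A6 at 12.1 against 4.87 CPM. SLC2A4 was also among those higher, at 1.86 against 3.51 CPM (adjusted p = 0.00149 by edgeR). Both genes of this list called with DOX were thus called in the opposite direction with MUC1-C overexpression. How often this held over all genes called with DOX was not computed.

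Of 7 tested genes for other enzymes of the entry steps and their reversal, 2 were higher and 1 was lower with DOX. TIGAR, a phosphatase that degrades fructose 2,6-bisphosphate, rose from 21.0 to 36.7 CPM (adjusted p = 0.00125 by edgeR). G6PC3, a ubiquitous glucose 6-phosphatase, rose from 82.5 to 101.4 CPM (adjusted p = 0.0329), and ADPGK, which phosphorylates glucose with ADP, fell from 56.7 to 37.6 CPM (adjusted p = 0.0124). With MUC1-C overexpression, 3 of the 5 tested were higher and 2 were lower. The smallest p-values were those of SLC37A4, the glucose 6-phosphate transporter of the endoplasmic reticulum (39.6 to 65.8 CPM), and GPI, which converts glucose 6-phosphate to fructose 6-phosphate (379 to 533 CPM), together with ADPGK (54.7 to 65.98 CPM). TIGAR, listed there under its older symbol, was lower at 61.8 against 46.9 CPM (adjusted p = 0.00493 by edgeR), and G6PC3 was lower at 53.5 against 45.4 CPM (adjusted p = 0.00949). All 3 genes of this list called with DOX, TIGAR, G6PC3 and ADPGK, were thus called in the opposite direction with MUC1-C overexpression. The share of all genes called with DOX for which this held was not computed. In the lists that follow, GYS1, EPAS1 and NDRG1 were called higher in both experiments, while others such as MLXIPL were called in opposite directions.

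Among 11 tested genes of branches from the hexose phosphates, 4 were higher and 1 was lower with DOX. PYGB, brain glycogen phosphorylase, went from 158 to 235 CPM (adjusted p = 0.00304 by edgeR), and GFPT1, which starts hexosamine synthesis, from 165 to 133 CPM (adjusted p = 0.0299). With MUC1-C overexpression 5 of 12 were higher and 3 were lower, led by PGD (169 to 266 CPM), the glycogen synthase GYS1 (59.0 to 91.4 CPM) and the glycogen phosphorylase PYGL (588 to 793 CPM). The median log2 fold changes of this list, 0.11 and 0.01, were below those of the 10 entry genes in both experiments (0.36 and 0.53). The medians were 0.28 and 0.46 for the other glucose transporters and 0.30 and 0.27 for the other enzymes of the entry steps. A raised median was thus not particular to the 10 genes.

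Known regulators of these genes mostly did not pass in LNCaP-ER cells, where 1 of 21 was higher and 4 were lower. EPAS1, which encodes HIF-2α, rose from 3.76 to 9.55 CPM (adjusted p = 0.00308 by edgeR). MLXIPL, the carbohydrate-response factor ChREBP, fell from 10.2 to 3.27 CPM (adjusted p = 0.00377). With MUC1-C overexpression 13 of the 21 were higher and 2 were lower, led by EGLN1, an oxygen sensor that marks HIF proteins for degradation (81.3 to 156 CPM), and by the glucose-induced arrestins TXNIP (18.0 to 49.2 CPM) and ARRDC4 (34.4 to 70.9 CPM), of which TXNIP restrains GLUT1 at the cell surface. TXNIP varied widely between LNCaP-ER libraries, with 5001, 463 and 494 counts with vehicle and 6456, 795 and 9971 counts with DOX, and did not pass (adjusted p = 0.367 by edgeR).

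HIF-1 targets outside glycolysis were called in both directions. In LNCaP-ER cells 3 of 16 tested were higher with DOX and 2 were lower. The stress-responsive gene NDRG1 rose from 107 to 525 CPM, P4HA2, a collagen prolyl hydroxylase subunit, from 5.78 to 11.97 CPM, and ANKRD37 from 2.27 to 4.88 CPM (adjusted p = 0.00586, 0.0114 and 0.0130 by edgeR). With MUC1-C overexpression 8 of 17 were higher and 6 were lower, including VEGFA (27.7 to 51.2 CPM) and CA12 (10.7 to 24.5 CPM) on the higher side and BNIP3L (150 to 90.7 CPM) on the lower. The median log2 fold changes of this list were 0.03 and 0.16. The shares of each list called can be read against the 27.3% and 67.3% of all genes called in the 2 experiments.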

How the data were processed

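The authors prepared stranded mRNA libraries from triplicate cultures and deposited whole-number read counts per gene symbol, not normalized, for both experiments. They also deposited TPM values over 25545 genes for the silencing experiment, whose gene lengths are not stated. The submitters' processing notes name STAR, DESeq2, GRCh38 and hg38, without versions. Another 12 columns of per-sample values in the overexpression table were not used. Here each experiment was fitted separately with edgeR 4.0.16 (TMM factors, default filter on low counts, robust quasi-likelihood test, Benjamini-Hochberg adjustment over all genes tested, threshold 0.05). CPM values of tested genes are TMM-normalized, while the marker sums and the levels of genes not tested were scaled to total counts alone. Fold changes are on the log2 scale of the fitted counts, while those of the deposited TPM used log2(TPM + 1) with limma 3.58.1. DESeq2 1.42.0 was an alternative. Per-length shares used the TPM, and for the overexpression table counts divided by the lengths that the deposited counts and TPM imply, which varied by at most 0.0665% between libraries for these genes. Ratios used exact two-sided permutation tests (scipy 1.17.1). The replicates of each group differed by more than counting noise. TIGAR and G6PC1 were matched through RefSeq synonyms. Genes named from the lists are those called with the 3 smallest p-values per list and experiment, besides some added after their values were seen. Added were SLC2A4, TIGAR, G6PC3, EPAS1, NDRG1 and MLXIPL in the overexpression experiment and TXNIP and GYS1 in LNCaP-ER cells. Some genes that this rule covers are not reported here. The 10 genes and the lists were chosen with earlier results of these data known.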

Additional observations from a re-analysis of the deposited data

How the results depend on the processing

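The number of the 10 genes called was 3 to 5 in the silencing experiment when each library was left out in turn, and 7 to 8 in the overexpression experiment. The number of all genes called in the silencing experiment then ranged from 2002 (without vehicle replicate 3) to 5243 (without DOX replicate 2), with 2200 without vehicle replicate 2 and 2067 without DOX replicate 3. With the deposited TPM, 7 of the 9 genes that could be fitted were called higher with DOX, SLC2A3 being under the TPM minimum and not tested, and the log2 fold changes of HK2 and PFKM changed sign to 0.29 and 0.43. On that scale the median of all genes was 0.45, 95.04% of calls were higher against 46.8% in the reported fit, and HK2 and PFKM lay at -0.16 and -0.02 relative to that median. Without a filter the median of all genes in the silencing experiment was 0.36. PFKL passed with DOX under RLE factors, library size alone, DESeq2, at least 10 counts in every library, and without DOX replicate 2. With library size alone, 59.6% of calls in the silencing experiment and 32.3% in the overexpression experiment were higher, the latter against 49.4%. Leaving out each library in turn, the log2 fold change of PFKFB4 in the overexpression experiment ranged from -0.096 to 0.016, with a change of sign without LNCaP replicate 1 or MUC1-C OE replicate 1. Log2 ratios that changed sign in this way were PFKP/PFKL with DOX (-0.36 to 0.0052, without DOX replicate 3), PFKFB4/PFKFB3 with DOX (-0.040 to 0.32, without vehicle replicate 2 or DOX replicate 2) and HK2/HK1 with MUC1-C overexpression (-0.030 to 0.13, without LNCaP replicate 2 or MUC1-C OE replicate 2). The cause of these changes was not tested. With the replicate number as a replicate block, 4 and 8 of the 10 genes were called, and 4226 and 8965 genes in all. Deviations of same-numbered libraries correlated at 0.20, 0.07 and -0.13 in the silencing experiment and at -0.02, -0.21 and -0.03 in the overexpression experiment. With 3 libraries per group, such correlations cannot decide whether same-numbered libraries shared a batch or culture. GENCODE exon lengths, an alternative chosen after seeing the data, moved 32 of 40 shares by more than the spread between replicates. Low counts limit SLC2A3 in LNCaP-ER cells most, and with 3 libraries per group no ratio could pass an exact test.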
